A study of Rattus norvegicus with 6 samples.

Results

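The genes of the pyruvate dehydrogenase complex and of the enzymes that switch it off and on were followed in cultured rat nucleus pulposus cells, which fill the soft centre of the intervertebral disc. They are the subunit genes Pdha1, Pdhb, Dlat and Pdhx, the kinase genes Pdk1, Pdk2, Pdk3 and Pdk4, and the phosphatase genes Pdp1 and Pdp2. The 10 genes were taken by symbol from a table of 17273 genes, all 10 were found, and all 10 passed the filter on low counts. The cells came from wild-type male Sprague Dawley rats, an outbred strain, and grew in DMEM with fetal bovine serum. In the control group, 3 libraries came from untreated cells. In the lactate group, 3 libraries came from cells exposed to lactate at 10 mM over 8 h. Acid or salt is not specified by the labels. Nor do they tie the replicates to different cultures or rats, so every p-value reflects only how these libraries scatter, which may be technical. The labels give neither the age of the rats nor a passage number.

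The pyruvate dehydrogenase complex sits in the mitochondrial matrix and turns pyruvate, which is made by glycolysis or from lactate by lactate dehydrogenase, into acetyl-CoA for the TCA cycle. Its E1 enzyme is built from an alpha chain (Pdha1) and a beta chain (Pdhb), its E2 core from dihydrolipoamide acetyltransferase (Dlat), and the E3-binding protein (Pdhx) tethers the E3 enzyme, dihydrolipoamide dehydrogenase (Dld), to that core. The pyruvate dehydrogenase kinases phosphorylate serines of the E1 alpha chain and so inactivate the complex, and the phosphatases remove the phosphates and reactivate it. Pdk1 is a known target of hypoxia-inducible factor, Pdk2 is widely expressed, and Pdk4 is known for its induction by fasting, fatty acids and glucocorticoids. Disc cells live far from blood vessels, rely mainly on glycolysis and are exposed to the lactate it yields.

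Libraries held 30291357 to 38989574 counts, and no 2 of them held identical values. Each gene is given on 2 scales, because they place the groups differently. Levels in FPKM, as deposited, are read numbers scaled by transcript length and library size, so that genes can be set side by side. Each fold change is on the log2 scale, lactate over control, from edgeR with TMM factors, which centre the bulk of genes. The control libraries had factors of 1.32 to 1.36, and the lactate libraries 0.702 to 0.806. The middle gene of the 13747 tested had a log2 fold change of −0.10 on the TMM scale, and −0.95 when only library totals were used, so a gene of equal FPKM in both groups lies above the median gene. As a check of the label, the summed FPKM of 9 of 11 listed nucleus pulposus and cartilage markers, which include aggrecan, was 613 to 686 in control and 334 to 378 in the lactate group, while the notochord genes Tbxt and Krt19 had only 12 and 9 control counts and 0 lactate counts. Most of this sum was aggrecan (Acan), at −0.06 on the log2 scale with TMM factors (edgeR adjusted p = 0.59), and of the 7 of these genes tested Sox9 (1.45) and Cd24 (2.32) were called higher, Pax1 (−0.88) lower and 4 not. The summed FPKM of 6 annulus and fibroblast markers was 7264 to 8612 for control and 14107 to 17552 for lactate, most of it Col1a1 (7156 and 15188 FPKM on average), while Mkx (36.6 and 3.89) and Pdgfra (19.7 and 4.03) were called lower. With TMM factors 3 of these 6 genes were called higher and 2 lower. The summed FPKM of 4 macrophage markers was 7.59 to 8.14 for control and 1.78 to 2.41 for lactate. Most of the control sum was Cd14 (7.23 and 1.19 FPKM on average), which was called lower with TMM factors. Cd68 (0.548 and 0.856 FPKM) was called higher. Csf1r had 23 control and 36 lactate counts and Adgre1 4 and 0. Of 3 endothelial markers the sum was at most 0.0936 FPKM, and of 5 adipocyte and muscle markers it was 10.1 to 12.7 for control and 6.93 to 11.3 for lactate. The part of these markers in the results was not tested.

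The kinases and phosphatases did not move as a group. With edgeR and TMM factors 5 of the 10 genes were called higher at an adjusted p under 0.05 (Pdha1, Pdhb, Pdhx, Pdk4 and Pdp2), 3 were called lower (Pdk1, Pdk2 and Pdp1), and Dlat and Pdk3 were not called. Over all genes tested 31.4% were called higher and 34.6% lower. With library totals 3 of the 10 were called higher, where 12.6% of all genes were, and 5 lower, where 61.7% were, with 74.3% of all genes called in either direction. With the trend on transcript length removed, 6 were called higher and 3 lower, against 33.5% and 30.5% of all genes (64% in either direction). With the trend on expression level removed, 4 were called higher and 3 lower, against 32.1% and 30.9% (63% in either direction). Without any test, the FPKM of the groups did not overlap for 8 of the 10 genes, nor for 78.6% of all genes. The median log2 fold change of the 10 genes was 0.42 with TMM factors, against −0.45 with library totals. Neither share is read as particular to these genes, since 66% of all genes were called in one direction or the other. Pdhb, Pdhx and Pdk4 were called higher and Pdk1, Pdk2 and Pdp1 lower in all 18 alternative analyses, which were other scalings, filters, tools and designs and each library left out in turn. The calls of Pdha1, Dlat, Pdk3 and Pdp2 depended on the alternative. In bulk RNA, fewer cells that express a gene and less RNA per cell cannot be told apart.

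**Figure D1:**
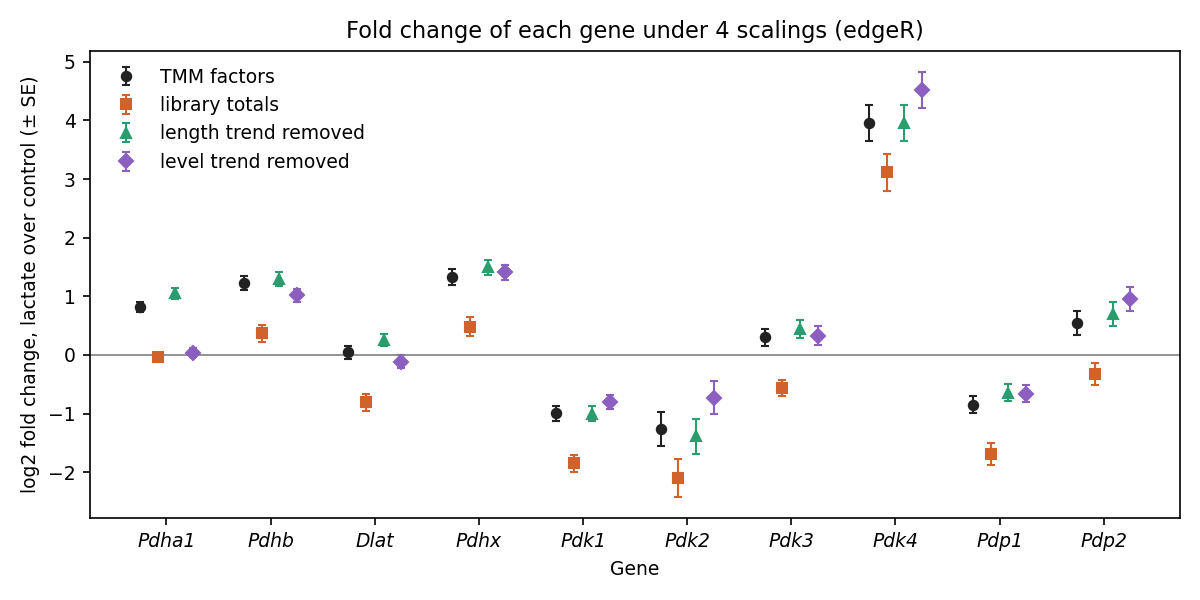
Log2 fold change of lactate over control from edgeR (vertical axis, bars are ± SE) for each of the 10 genes, under TMM factors, library totals, and TMM factors with the trend on transcript length or on expression level removed. Pdk4 lies near 3 to 4.5 and Pdk1, Pdk2 and Pdp1 below 0 under all 4, whereas Pdha1, Dlat, Pdk3 and Pdp2 change side or reach 0.

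In control cells the E1 alpha chain was by far the most abundant mRNA of the set. Pdha1 stood at 99.6 ± 3.51 FPKM (SD, n = 3), followed by Pdhb at 23.0 ± 2.80, Dlat at 20.4 ± 1.61 and, among the regulators, Pdk1 at 17.1 ± 0.361. Next came Pdk3 at 13.5 ± 0.930 FPKM, Pdp1 at 10.2 ± 0.213, Pdhx at 7.73 ± 0.501, Pdk2 at 5.67 ± 0.679 and Pdp2 at 3.95 ± 0.550. Pdk4 was last, at 0.350 ± 0.114 FPKM. Of these neighbours in the order, only Pdhb and Dlat had libraries that overlapped. In lactate libraries the order changed below the E1 chains. Pdha1 (96.0 ± 2.28 FPKM) and Pdhb (29.4 ± 3.77) stayed at the top, Dlat (11.5 ± 1.95), Pdhx (10.7 ± 1.94) and Pdk3 (9.05 ± 0.860) overlapped each neighbour in turn, and Pdp2, Pdp1 and Pdk4 lay together at 3.13 ± 0.389, 3.08 ± 0.766 and 3.05 ± 0.478 FPKM. Pdk2 was now last, at 1.30 ± 0.576 FPKM.

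**Figure D2:**
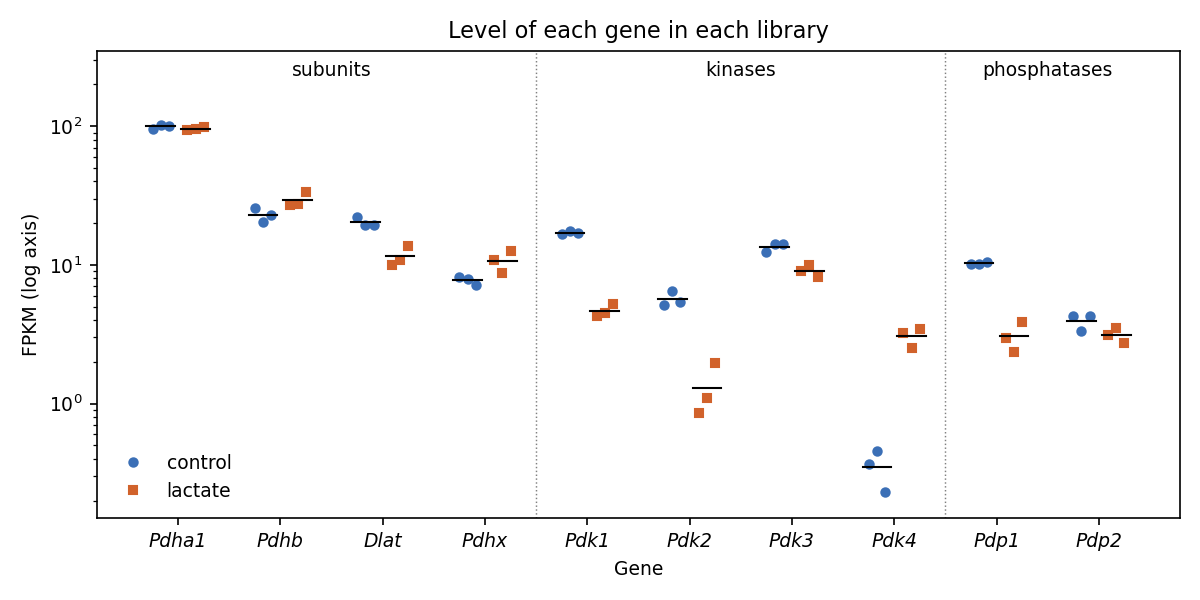
FPKM (log axis) of the 10 genes in each of the 3 control libraries (circles) and 3 lactate libraries (squares), with the mean of each group as a line. Pdk4 goes from 0.350 to 3.05 FPKM, while Pdk1, Pdk2, Pdk3, Dlat and Pdp1 drop below all control libraries. The groups of Pdha1 and of Pdp2 overlap.

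Pdk4, the kinase known from fasting tissues, was the gene of the set that rose most. Its FPKM was 0.366, 0.455 and 0.230 in control libraries 1, 2 and 3 and 3.21, 2.52 and 3.43 in lactate libraries 1, 2 and 3. All lactate libraries lay above all control libraries. The level rested on 20, 29 and 13 reads in the control libraries and 160, 125 and 199 in the lactate libraries, so its control level is the least precise of the set. On the CPM scale with TMM factors, which is counts scaled by library size, Pdk4 went from 0.425 ± 0.143 to 6.69 ± 0.723 (SD, n = 3). The log2 fold change was 3.96 ± 0.31 (SE; edgeR adjusted p = 1.1e-05), and 99.2% of the genes tested had a lower one. With library totals it was 3.11, and between 3.73 and 4.22 with any 1 library left out.

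Pdk1, the hypoxia-linked kinase and the most abundant kinase mRNA of control cells, fell. It stood at 16.7, 17.4 and 17.0 FPKM in control libraries 1 to 3 and at 4.30, 4.46 and 5.25 in lactate libraries 1 to 3. The control libraries lay close together and well above the lactate libraries. Its mean FPKM was 3.65 times as high in control as in lactate libraries, and the log2 fold change with TMM factors was −1.0 ± 0.12 (SE; edgeR adjusted p = 0.00014). With library totals it was −1.85.

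Pdk2, the widely expressed kinase, fell as well, but with more spread. Its control libraries 1 to 3 were at 5.14, 6.44 and 5.42 FPKM and its lactate libraries at 0.856, 1.09 and 1.95. Lactate replicate 3 was the highest of its group and still below every control library. The log2 fold change was −1.26 ± 0.29 (SE; edgeR adjusted p = 0.0043), −1.57 without lactate replicate 3 and −0.73 with the trend on level removed, which left it close to the threshold (edgeR adjusted p = 0.0497).

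Pdk3, a kinase of narrow tissue range known from testis and brain, was not called. Its FPKM was 12.5, 14.1 and 14.0 in control and 9.0, 9.93 and 8.21 in lactate libraries, which do not overlap. On the CPM scale with TMM factors the groups overlapped, with 21.5 ± 1.71 for control and 26.4 ± 4.32 for lactate (SD, n = 3). The log2 fold change was 0.30 ± 0.15 with TMM factors (SE; edgeR adjusted p = 0.11), and −0.57 with library totals, where it was called lower (edgeR adjusted p = 0.0049). A call as higher came without lactate replicate 3 (0.45; edgeR adjusted p = 0.011) and after removing the trend on length (0.44; edgeR adjusted p = 0.028). The direction of Pdk3 thus depended on the scaling.

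The make-up of the kinase mRNAs is a ratio within each library and does not depend on library scaling. Pdk1 made up 48.2, 45.3 and 46.4% of the summed FPKM of Pdk1 to Pdk4 in control libraries 1 to 3 and 24.8, 24.8 and 27.9% in lactate libraries 1 to 3. The share of Pdk4 went from 0.955 ± 0.293% (SD, n = 3) in control to 16.9 ± 2.52% in lactate libraries, where it was 18.5, 14.0 and 18.2%. Pdk2 went from 15.4 ± 1.12% to 7.12 ± 2.86%, and Pdk3 from 37.0 ± 1.16% to 50.2 ± 5.97%. The groups did not overlap for any of the 4 shares. Nor did they in FPKM for 78.6% of single genes tested, and no such background was computed for shares. The shares are parts of the same sum and so not separate results. That of Pdk3 rose while its own mean FPKM went from 13.5 to 9.05. Control cells thus held mostly Pdk1 and Pdk3 mRNA, and lactate-treated cells mostly Pdk3, then Pdk1, then Pdk4. Unlike the shares, the summed FPKM of the 4 kinases depends on library scaling. It was 36.6 ± 1.88 in control and 18.1 ± 0.744 in lactate libraries. The sum was not computed in CPM with TMM factors. On that scale the control and lactate means were 20.5 and 10.3 for Pdk1 and 5.31 and 2.20 for Pdk2. They were 21.5 and 26.4 for Pdk3 and 0.425 and 6.69 for Pdk4.

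**Figure D3:**
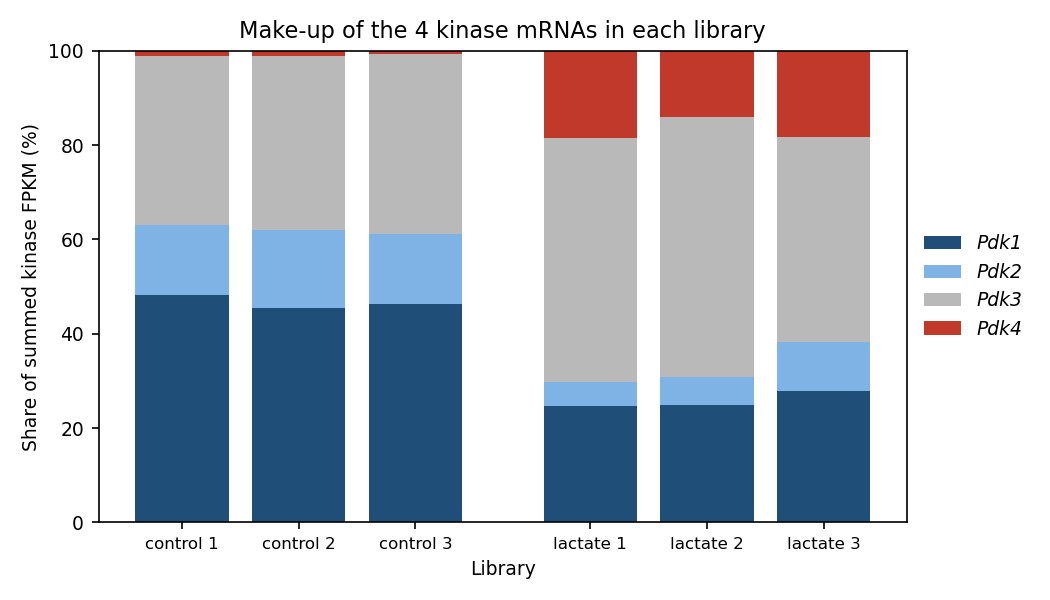
Share of each kinase gene in the summed FPKM of Pdk1 to Pdk4 (vertical axis, %) in each of the 6 libraries. Pdk4 is a thin band of about 1% in control libraries and 14.0 to 18.5% in lactate libraries, and the Pdk1 and Pdk2 bands shrink.

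Since the 4 kinase genes moved apart, the 250 bases before their start sites are shown side by side, from RefSeq on the rat assembly GRCr8, 5′ to 3′ on the strand of the gene. This window was found for 8 of the 10 genes. Capitals mark 2 short motifs searched on both strands, the GC box GGGCGG bound by Sp1 and the core ACGTG of the hypoxia response element.
Pdk1 (chr3:77113264-77113513, + strand): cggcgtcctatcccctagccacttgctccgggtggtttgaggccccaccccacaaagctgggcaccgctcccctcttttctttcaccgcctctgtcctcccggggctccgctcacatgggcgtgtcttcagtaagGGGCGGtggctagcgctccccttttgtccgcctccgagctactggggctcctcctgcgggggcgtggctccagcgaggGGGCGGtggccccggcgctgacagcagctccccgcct
Pdk2 (chr10:80483913-80484162, - strand): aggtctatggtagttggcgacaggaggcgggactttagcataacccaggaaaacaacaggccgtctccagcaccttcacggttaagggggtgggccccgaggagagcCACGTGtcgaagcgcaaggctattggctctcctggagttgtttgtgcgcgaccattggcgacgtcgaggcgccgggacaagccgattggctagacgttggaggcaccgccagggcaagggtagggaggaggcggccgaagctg
Pdk3 (chrX:62547372-62547621, - strand): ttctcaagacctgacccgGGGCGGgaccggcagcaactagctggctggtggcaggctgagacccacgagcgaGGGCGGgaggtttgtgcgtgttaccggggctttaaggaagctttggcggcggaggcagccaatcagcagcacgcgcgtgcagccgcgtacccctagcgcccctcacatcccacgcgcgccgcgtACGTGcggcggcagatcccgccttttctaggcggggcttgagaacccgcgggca
Pdk4 (chr4:34568330-34568579, - strand): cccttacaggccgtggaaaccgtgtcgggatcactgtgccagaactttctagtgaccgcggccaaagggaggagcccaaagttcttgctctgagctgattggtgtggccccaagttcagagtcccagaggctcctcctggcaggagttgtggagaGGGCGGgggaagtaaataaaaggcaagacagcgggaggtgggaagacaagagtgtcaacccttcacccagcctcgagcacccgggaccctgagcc

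GC boxes were found before Pdk1 (115 and 37 bases before the start), Pdk3 (232 and 178) and Pdk4 (95), and none before Pdk2. Of the 9397 tested genes with such a window, 60.8% held this motif. The ACGTG core was found before Pdk3 (54 bases) and Pdk2, where it lies on both strands within the E-box CACGTG, 143 bases before the start. Of all windows 22.4% held the core and 8.2% the E-box. The window of Pdk2 also held 3 copies of the CCAAT box, found in 36% of windows, and those of Pdk3 and Pdk4 held 1 each. None of the 4 windows held the FOXO motif TGTTTAC (1.9% of windows) or the nuclear receptor half-site AGGTCA (10.1%). The window of Pdk4 held 9 CG dinucleotides, against 19, 20 and 28 in those of Pdk1, Pdk2 and Pdk3 and a median of 17 over all windows. A match is only a match of letters, and the absence of one says only that these letters are not in this window.

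Among the subunits, Pdhx and Pdhb were called higher under every analysis, while Dlat lagged behind them. Pdhb, the E1 beta chain, was at 25.9, 20.3 and 22.9 FPKM in control libraries 1 to 3 and at 27.1, 27.4 and 33.8 in lactate libraries 1 to 3. The lowest lactate library lay just above the highest control library. On the log2 scale the difference was 1.22 ± 0.12 with TMM factors (SE; edgeR adjusted p = 2.9e-05) and 0.37 with library totals (edgeR adjusted p = 0.043). Pdhx, the tether of the E3 enzyme, was at 8.14, 7.88 and 7.17 FPKM in control and 10.8, 8.78 and 12.6 in lactate libraries. Its groups did not overlap either. With TMM factors it stood at 1.33 ± 0.13 on the log2 scale (SE; edgeR adjusted p = 4.1e-05), and 0.48 with library totals (edgeR adjusted p = 0.027).

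Pdha1, the E1 alpha chain that the kinases phosphorylate, held a nearly constant share of the reads. It was at 95.7, 102 and 101 FPKM in control and 93.8, 95.8 and 98.3 in lactate libraries, and the groups overlapped. With library totals its log2 fold change was −0.04 (edgeR adjusted p = 0.63). With TMM factors it was 0.82 ± 0.09 (SE; edgeR adjusted p = 6.1e-05), and its CPM was 207 ± 8.89 for control and 366 ± 20.2 for lactate (SD, n = 3). Pdha1 is among the most abundant genes, with 96.6% of genes tested below it in mean level, and removing the trend on level left it at 0.04 without a call (edgeR adjusted p = 0.68). RefSeq lists a pseudogene of Pdha1 and a pseudogene of Dlat that have no row in the table, so reads of these 2 genes could include or lose some from the copies.

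Dlat, the E2 core, was at 22.2, 19.4 and 19.6 FPKM in control and 10.0, 10.9 and 13.7 in lactate libraries. Every lactate library lay below every control library on this scale. The log2 fold change was 0.04 ± 0.12 with TMM factors (SE; edgeR adjusted p = 0.76) and −0.81 with library totals (edgeR adjusted p = 0.0011). Dld, the E3 enzyme shared with the other 2-oxoacid dehydrogenases, behaved alike on both scales, at 35.4 ± 7.18 FPKM for control and 21.5 ± 1.05 for lactate (SD, n = 3). It stood at 0.16 ± 0.15 (SE) on the log2 scale with TMM factors (edgeR adjusted p = 0.37) and −0.71 with library totals (edgeR adjusted p = 0.0029). Without control replicate 1 Dld was at 0.32 with TMM factors and was called higher (edgeR adjusted p = 0.039).

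Pdp1, the calcium-activated phosphatase, fell. It was at 10.1, 10.1 and 10.5 FPKM in control libraries 1 to 3 and 2.99, 2.37 and 3.89 in lactate libraries 1 to 3. The SD of the control libraries was 2.08% of their mean, and the lactate libraries were below all of them. On the log2 scale the difference was −0.85 ± 0.15 (SE; edgeR adjusted p = 0.0011) with TMM factors and −1.70 with library totals. Pdpr, the regulatory subunit of the phosphatase, was lower too, from 3.90 ± 0.351 to 0.944 ± 0.440 FPKM (SD, n = 3) which is −1.19 ± 0.27 (SE) on the log2 scale with TMM factors (edgeR adjusted p = 0.0042).

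Pdp2, the phosphatase that does not need calcium, gave no stable call. Its FPKM was 4.28, 3.31 and 4.26 in control and 3.14, 3.51 and 2.73 in lactate libraries, and the groups overlapped. The log2 fold change was 0.55 ± 0.20 with TMM factors (SE; edgeR adjusted p = 0.037), and −0.33 with library totals (edgeR adjusted p = 0.14). The call with TMM factors was lost without control replicate 1, 2 or 3 and without lactate replicate 1 or 2 (edgeR adjusted p from 0.063 to 0.13), and was kept without lactate replicate 3 (0.71; edgeR adjusted p = 0.0078). The relation between the phosphatases was clearer. Pdp2 made up 27.7 ± 2.67% of the summed FPKM of Pdp1 and Pdp2 for control and 50.7 ± 9.24% for lactate (SD, n = 3), with single libraries at 29.7, 24.7 and 28.9% and at 51.2, 59.7 and 41.2%.

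Ratios within a library show how the parts moved against each other whatever the library scaling, although a trend with transcript length or level would remain in them. Against Pdha1, the summed kinases went from a log2 ratio of FPKM of −1.44 ± 0.03 (SD, n = 3) in control to −2.41 ± 0.03 in lactate libraries. The summed phosphatases went from −2.81 ± 0.11 to −3.95 ± 0.07 against Pdha1. Both sums were thus lower against Pdha1 in lactate libraries, by 0.97 for kinases and 1.14 for phosphatases on the log2 scale, and the log2 ratio of summed kinases to summed phosphatases was 1.37 ± 0.13 in control and 1.54 ± 0.06 in lactate libraries, with overlap. It did not overlap when counts not divided by length were used (0.86 ± 0.12 and 1.16 ± 0.10). The sums were not computed with the trend on level removed. In that setting the log2 fold changes were 0.04 for Pdha1, −0.80 for Pdk1, −0.73 for Pdk2 and 0.33 for Pdk3. They were 4.52 for Pdk4, −0.66 for Pdp1 and 0.95 for Pdp2. Whether the sums would still be lower against Pdha1 there was not tested.

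Inside the kinase family the largest shift of the ratios computed was between Pdk4 and Pdk2, whose log2 ratio went from −4.06 ± 0.43 to 1.31 ± 0.55 (SD, n = 3). That of Pdk4 to Pdk1 went from −5.66 ± 0.49 to −0.62 ± 0.20, and that of Pdk3 to Pdk1 from −0.34 ± 0.08 to 0.95 ± 0.27. Inside the complex, Dlat to Pdha1 went from −2.29 ± 0.16 to −3.07 ± 0.20, Pdhb to Pdha1 from −2.12 ± 0.23 to −1.71 ± 0.15, and Pdhx to Dlat from −1.40 ± 0.09 to −0.11 ± 0.21. None of these ratios overlapped between groups. For single genes tested, the groups of 72.2% did not overlap in CPM, and no such share was computed for ratios of genes. The mRNA of the E3-binding protein therefore came close to that of the E2 core in lactate libraries, from well below it in control.

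**Figure D4:**
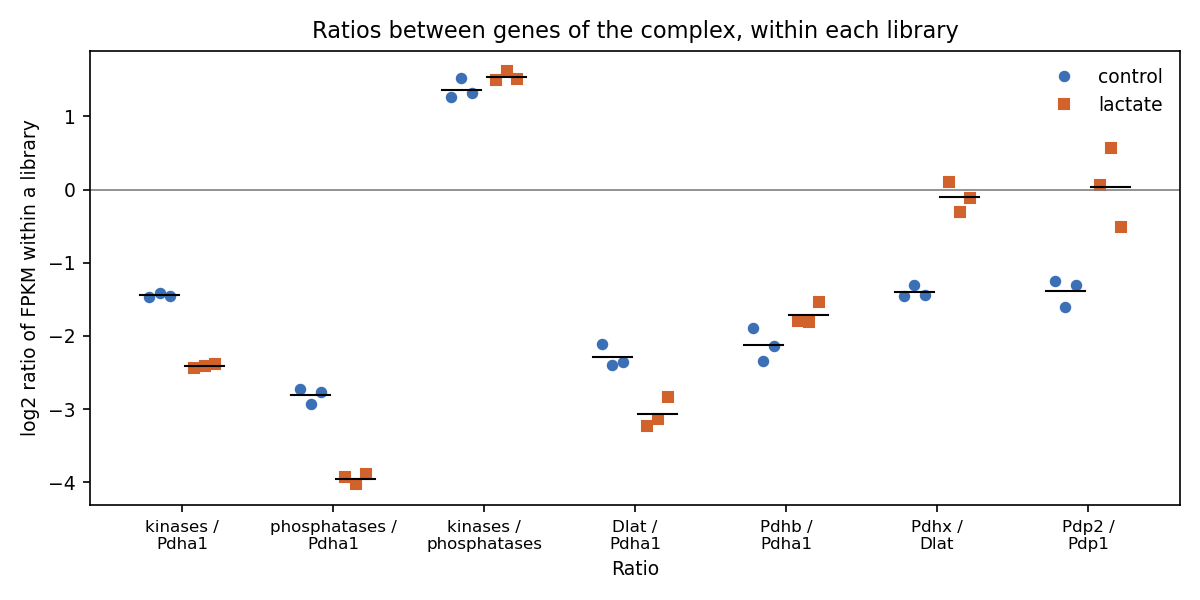
Log2 ratio of FPKM within each library for 7 pairs of genes or summed groups, with control libraries as circles, lactate libraries as squares and group means as lines. Kinases and phosphatases both lie lower against Pdha1 in lactate libraries, while their ratio to each other overlaps between groups, and Pdhx lies higher against Dlat and Pdp2 against Pdp1.

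Ranked among all genes tested by log2 fold change with TMM factors, the 10 genes lay above 19.3% (Pdk2) to 99.2% (Pdk4) of genes. Pdk2 (19.3% of genes had a lower log2 fold change), Pdk1 (24.6%) and Pdp1 (28.5%) lay in the lower part, and Dlat (54.8%), Pdk3 (62.4%) and Pdp2 (69.5%) in the middle. Pdha1 (76.6%), Pdhb (85.3%) and Pdhx (87.1%) were higher up, and Pdk4 lay near the top. The genes differ in level and length, with Pdk4 and Pdk2 above 20.9% and 27.3% of genes in mean level and Pdha1 and Pdhb above 96.6% and 79.3%. In relative transcript length they lay above 19.3% (Pdk2) to 63.3% (Pdha1) of genes.

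**Figure D5:**
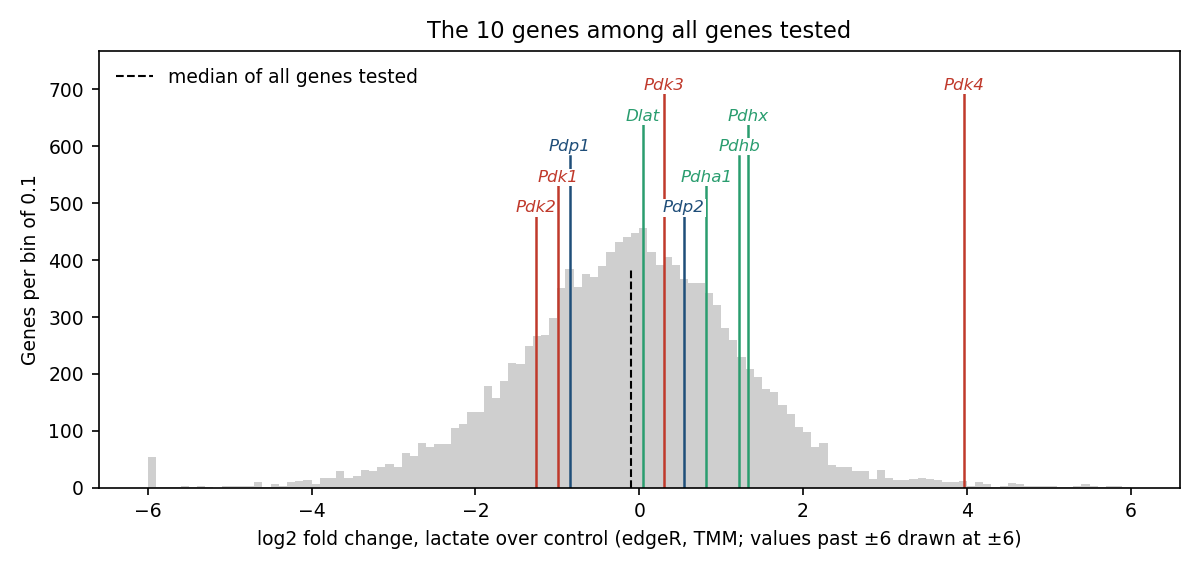
Histogram of the log2 fold change (edgeR, TMM factors) of the 13747 genes tested, with the 10 genes as coloured lines (subunits green, kinases red, phosphatases blue) and the median of all genes dashed at −0.10. Pdk4 stands at 3.96, away from the other 9 genes, which lie between −1.26 and 1.33.

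Some of the genes were much alike across the libraries. Likeness was the root mean square difference of log2(CPM + 0.5) over the 6 libraries after each gene's own mean was removed. Pdhb and Pdhx were each nearest to the other (0.14), as were Pdk1 and Pdp1 (0.15) and Pdk3 and Pdp2 (0.19). Pdk2 was nearest to Pdk1 (0.24), Pdha1 to Pdp2 (0.23) and Dlat to Pdk3 (0.26). Pdk4 had no near neighbour, with Pdhx at 0.84 as the closest. Of 11331 other genes with a symbol and a mean CPM of at least 1, the nearest to Pdk4 were Zmat3 (0.11), Aen (0.13) and Tp53inp1 (0.13), and among the nearest to Pdk1 were Stag1 (0.02) and Myh9l1 (0.03). Among the nearest to Pdk2 were Fubp3 (0.05) and Ears2 (0.08), and the nearest to Pdk3 were Rpap3 (0.04), Fam162a (0.05) and Tes (0.05). With 6 libraries in 2 well separated groups, this likeness reflects mostly the size of the difference between groups. For Pdk4 the added 0.5 is above its mean control level of 0.425 CPM and so shrinks its difference. The log2 fold changes with TMM factors were 3.15 for Zmat3, 2.81 for Aen and 3.03 for Tp53inp1, below the 3.96 of Pdk4.

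Genes that bring pyruvate to the complex were higher with TMM factors. Mpc1 and Mpc2 encode the mitochondrial pyruvate carrier. Mpc1 went from 43.8 ± 0.493 to 57.0 ± 0.865 FPKM (SD, n = 3), or 1.25 ± 0.10 (SE) on the log2 scale with TMM factors (edgeR adjusted p = 1.4e-05), and 0.39 with library totals (edgeR adjusted p = 0.0071). Mpc2 stood at 1.19 ± 0.23 (edgeR adjusted p = 0.0018). Removing the trend on length left 0.12 and library totals gave 0.32, neither of them called. Pc, the pyruvate carboxylase that competes for pyruvate, was called higher with TMM factors (0.44) and lower with library totals (−0.42), and was not called with upper-quartile factors or with the trend on level removed (0.29 in both). Of 9 genes of pyruvate supply and use, 4 were called higher, 2 lower and 3 not, with a median of 0.44. With library totals 1 was higher and 6 lower, with a median of −0.42. Cs, the citrate synthase that takes up acetyl-CoA, was among them at 0.59, and −0.27 with library totals and 0.05 with the trend on level removed.

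The cofactor genes held the widest moves among the other genes of the pathway. E1 needs thiamine diphosphate, and Slc19a2, a thiamine transporter of the plasma membrane, went from 1.88 ± 0.193 to 25 ± 1.54 FPKM (SD, n = 3), or 4.59 ± 0.12 (SE) on the log2 scale with TMM factors (edgeR adjusted p = 2.8e-07), and 3.73 with library totals. E2 needs lipoate. Lipt2, the enzyme that puts the octanoyl precursor on its first protein, fell from 2.22 ± 0.0574 to 0.175 ± 0.0387 FPKM, or −2.74 ± 0.30 on the log2 scale (edgeR adjusted p = 6.6e-05). Nfu1, an iron-sulfur carrier needed by lipoate synthase, fell by 1.76 on the log2 scale. Lias, the lipoate synthase itself, was at 0.79 ± 0.19 (edgeR adjusted p = 0.0051) with TMM factors and −0.07 with library totals, and Glrx5, another iron-sulfur protein, rose by 1.37. Of 16 cofactor genes tested, 5 were called higher, 7 lower and 4 not, with a median of −0.37, and 2 and 10 with a median of −1.23 with library totals.

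The related 2-oxoacid dehydrogenases, which share E3, had 2 of 8 genes called higher, 1 lower and 5 not (median 0.20, and 0 higher and 5 lower with a median of −0.66 with library totals). Dbt, the E2 of the branched-chain complex, fell by 0.95, and its E1 alpha gene Bckdha was at 0.73 with TMM factors and −0.11 with library totals. Dlst, the E2 of the 2-oxoglutarate complex, was at 0.26 with TMM factors, and was called lower with library totals (−0.59) and with the trend on level removed (−0.29). Its call as higher was also lost with upper-quartile factors, both other filters, and without control replicate 1, 2 or 3 or lactate replicate 1 (edgeR adjusted p from 0.056 to 0.32). Of 9 acetyl-CoA and protein regulators of the complex, 1 was called higher, 3 lower and 5 not (median 0.11, and 0 and 7 with a median of −0.76 with library totals). Crat, which buffers acetyl-CoA as acetylcarnitine, fell by 0.83, Acat1 by 0.84 and the desuccinylase Sirt5 by 0.83. Sirt4, a sirtuin known to act on the lipoyl groups of the complex, was the 1 called higher, at 0.89 with TMM factors. This call was lost with library totals (0.05), with upper-quartile factors (edgeR adjusted p = 0.059), and without any 1 library other than lactate replicate 2 (edgeR adjusted p from 0.052 to 0.089).

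Transcription factors known to act on kinase genes had 7 of 13 called higher, 3 lower and 3 not (median 0.65, and 4 higher and 6 lower with a median of −0.21 with library totals). Srebf1, of lipid synthesis, rose by 1.96, Cebpb by 1.70, the orphan receptor Esrra by 1.44 and Foxo3 by 1.36, and these 4 were called higher with library totals as well. Genes often studied with Pdk4 as PPAR and FOXO targets were divided, with 3 of 11 higher, 4 lower and 4 not (median −0.21, and 2 and 8 with a median of −1.07 with library totals). Txnip, which restrains glucose uptake, rose by 4.18 and the lipid droplet gene Plin2 by 1.53. Cpt1a, the gate of fatty acid oxidation, fell by 2.13 and Fkbp5, a glucocorticoid target, fell by 2.06. Over the 6 lists 22 of 66 genes tested were called higher and 20 lower, near the background of 31.4% and 34.6%. The lists were chosen by known role, with earlier results of these data known.

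The authors' deposited table lists these genes as well. Its log2 fold changes, from the authors' deposited table, were 3.93 for Pdk4, −1.03 for Pdk1, −1.30 for Pdk2 and 0.26 for Pdk3. For the subunits the authors' deposited table lists 0.78 (Pdha1), 1.19 (Pdhb), 1.30 (Pdhx) and 0.01 (Dlat), and for the phosphatases −0.88 (Pdp1) and 0.51 (Pdp2). In the authors' deposited table Dlat, Pdk3 (adjusted p = 0.30) and Pdp2 (adjusted p = 0.14) did not pass an adjusted p of 0.05, which 51.6% of its 17273 genes passed.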

How the data were processed

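The data are RNA sequencing of 3 control and 3 lactate libraries. The authors deposited raw read counts per gene and FPKM for each library, and their own log2 fold changes, p-values and adjusted p-values, per the file headers. Aligner, counting tool, annotation and strandedness were not given in the sources used here, and the submitters' processing notes name the mouse builds GRCm38 and mm10, although gene names are those of rat. Counts were tested by quasi-likelihood in edgeR 4.0.16 (R 4.3.3; TMM factors, filterByExpr, group as the only term, Benjamini-Hochberg adjustment over 13747 genes). The tests and trend removal were run on simulated data. Changes were planted equally in both directions at a single dispersion, and a trend on a random covariate. Such data cannot decide between TMM factors and library totals, nor judge the removal of a trend on level. The alternatives used library totals, upper-quartile or RLE factors, 2 other filters, DESeq2 1.42.0, limma 3.58.1 (voom, and trend on log2(FPKM + 1) and log2(FPKM + 0.1)), a replicate block, loess removal (span 0.4) of trends on length or level, and each library left out. Relative length is count over FPKM per library total. Motifs were searched in RefSeq windows. Named genes are all 10 members, 6 fixed pathway genes, from each list at most 4 called genes (smallest p first), and the 3 genes nearest to each kinase in likeness. A few genes that this rule names are not reported here. Members and lists were chosen with earlier results of these data known. A count of 0 allows up to 3 counts, or 0.0581 to 0.141 CPM with TMM factors, for counting error only.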

Additional observations from a re-analysis of the deposited data

How the results depend on the processing

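Over the alternatives, 152 values of single members kept their direction and their side of the threshold, and 16 changed sign. With the sign kept, 10 lost and 2 gained a call. Some of the 16 changed their call too. In all, Pdha1 was not called in 4 of its 18 alternatives and Pdp2 in 12. Dlat was called lower in 3, and Pdk3 lower in 3 and higher in 2. The counts over all genes, over the members and over the pooled pathway lists moved by more than 1.5 times with library totals and with limma-trend on log2(FPKM + 1) and on log2(FPKM + 0.1), which use no TMM factors, and in no other setting run. Counts of single lists, which are small, moved in other settings too (53 of their values moved and 163 did not). In the order named, the 3 settings called 1726, 1781 and 1770 genes higher (4319 with TMM) and 8485, 8759 and 8737 lower (4760 with TMM). Members called were 3, 3 and 3 higher and 5, 5 and 5 lower, and genes of the pathway lists 9, 10 and 10 higher and 42, 43 and 43 lower (22 and 20 with TMM). The log2 ratio of summed kinases to Pdha1 fell by 0.88 with counts not divided by length and by 0.97 with FPKM.

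The sign changed in the same 3 settings, in that order, for Pdha1 (−0.043, −0.053, −0.053), Dlat (−0.81, −0.78, −0.83), Pdk3 (−0.57, −0.54, −0.58), Pdp2 (−0.33, −0.26, −0.33), Dld (−0.71, −0.68, −0.70), Pc (−0.42, −0.40, −0.43), Lias (−0.068, −0.083, −0.10), Cs (−0.27, −0.28, −0.28), Bckdha (−0.11, −0.14, −0.16) and Dlst (−0.59, −0.60, −0.61), and for Sirt4 only in the last (−0.025). Dlat was also below 0 with upper-quartile factors (−0.12), the stricter filter of 10 counts (−0.0058), the level trend removed (−0.12) and without lactate replicate 3 (−0.0044, in a range up to 0.12 over each library left out), Dld with upper-quartile factors (−0.00034) and the level trend removed (−0.19), and Dlst with the level trend removed (−0.29). The cause was not tested.

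Replicates 1 to 3 carry the same numbers in both groups, but same-numbered libraries did not deviate together (r of 0.01, 0.05 and 0.09 across genes), so the number is not taken as a pairing, and not every library correlated best with its own number. With the replicate block 8814 genes were called, and 4 members higher and 3 lower, with the call of Pdp2 lost (edgeR adjusted p = 0.072), as were those of Sirt4 (0.068) and Dlst (0.059). Leaving out 1 library gave 4 to 6 members higher and 3 lower. The share of Pdk4 among the kinases was higher in lactate libraries by 15.1 to 17.4 percentage points without any 1 library. Depth limits Pdk4 in control and Pdk2 in lactate libraries most, with 62 and 164 counts over each group.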
